A study of Mus musculus with 4 samples.

Results

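Expression of 10 genes of glucose use was followed across 4 sections of mouse hearts before and after myocardial infarction (MI). The genes are Hk1, Hk2, Pfkm, Pfkl, Eno1, Eno3, Ldha, Ldhb, Slc2a1 and Slc2a4, taken by symbol from a table of 21885 genes, and they form 5 pairs that do the same step: hexokinases, phosphofructokinases, enolases, lactate dehydrogenase subunits and glucose transporters. All 10 were found and measured in every section. RNA was captured on Visium arrays, where each spot is a small region that can hold several cells of different types, and each value is a count of unique molecular identifiers (UMIs), close to a count of captured RNA molecules. The sections were 1 uninjured control, 1 heart at 3 days post infarction (3 dpi) and 2 hearts at 5 dpi, 1 labelled female and 1 labelled male. The control and 3 dpi hearts were labelled female. All mice, the control included, were labelled Collagen1a1-GFP+, a reporter that marks cells with an active Col1a1 promoter, chiefly fibroblasts, and were 8 to 12 weeks old. The infarct was made by permanent ligation of the left anterior descending coronary artery, so the tissue was not reperfused, and 1 section per heart was used.

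Glucose enters cells through facilitative transporters and is phosphorylated by hexokinase, committed to glycolysis by phosphofructokinase, passed through enolase near the end of the pathway, and reduced from pyruvate to lactate by lactate dehydrogenase when pyruvate is not oxidised in mitochondria. Adult cardiomyocytes burn mostly fatty acids and carry muscle forms of these proteins: the insulin-responsive transporter GLUT4 (Slc2a4), the insulin-regulated hexokinase HK2, the muscle phosphofructokinase (Pfkm), beta-enolase (Eno3) and the heart-type H subunit of lactate dehydrogenase (Ldhb). GLUT1 (Slc2a1), HK1, the liver-type phosphofructokinase (Pfkl), alpha-enolase (Eno1) and the M subunit of lactate dehydrogenase (Ldha) are found in most other cells, and several of their genes are known targets of the hypoxia-inducible factors.

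The control kept 1146 spots, the 3 dpi section 1741, the female-labelled 5 dpi section 1535 and its male-labelled counterpart 1423, with 6250183 to 11010109 UMIs per section and medians of 4967.5 to 6935 UMIs per spot. Mitochondrially encoded RNA made up 40.1% of UMIs in the control and 13.3% to 21.4% after MI. The tissue was checked against 12 cardiomyocyte markers such as Myh6 and Tnnt2, all 12 of them detected, which together reached 102049 CPM, UMIs of a gene per 1000000 UMIs outside mitochondrial genes, in the muscle-rich spots of the control defined next. Y-linked genes (4 genes) gave 704 UMIs in the female-labelled and 1 in the male-labelled 5 dpi section, opposite to the labels, and 0 in the others. The 5 dpi sections are therefore named only by their labels and nothing is drawn from sex. In the male-labelled section, 623 further spots with counts were not marked as tissue and were left out.

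To follow the genes from muscle into the infarct, spots were classed by the share of the 12 cardiomyocyte markers in their non-mitochondrial UMIs, relative to the 90th percentile of that share in their own section. Spots were muscle-poor below 0.25, low from 0.25 to 0.5, intermediate from 0.5 to 0.75 and muscle-rich at 0.75 or above. The control held 1099 muscle-rich, 46 intermediate, 1 low and 0 muscle-poor spots. Muscle-poor spots numbered 516 at 3 dpi, and 952 and 591 in the female-labelled and male-labelled 5 dpi sections, and muscle-rich spots 497, 286 and 509 in the same order. None of the 10 genes is among the markers that set the classes. In tissue of mixed cells, fewer cells of a type and less RNA per cell cannot be told apart.

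Promoters of 4 genes that the comparisons turn on are shown first, because Slc2a1, Ldha and Eno1 are textbook genes of the hypoxia response and Eno3 is the muscle partner of Eno1. Each run is the 250 bases before a RefSeq transcript start in GRCm38.p6, read 5′ to 3′ on the strand of the gene. The deposited files give no coordinates, so these windows serve only as sequence. All 4 lie on the plus strand, Slc2a1 at chr4:119108495-119108744, Ldha at chr7:46845554-46845803, Eno1 at chr4:150236947-150237196 and Eno3 at chr11:70656926-70657175. Capitals mark ACGTG or GCGTG on either strand, the letters at the core of hypoxia response elements, where the palindrome CACGTG counts as a match on each strand.
Slc2a1: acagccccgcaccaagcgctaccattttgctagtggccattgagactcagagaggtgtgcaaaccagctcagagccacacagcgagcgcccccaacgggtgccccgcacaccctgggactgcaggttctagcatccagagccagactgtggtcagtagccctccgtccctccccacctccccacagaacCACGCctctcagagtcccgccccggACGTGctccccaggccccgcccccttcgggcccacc
Ldha: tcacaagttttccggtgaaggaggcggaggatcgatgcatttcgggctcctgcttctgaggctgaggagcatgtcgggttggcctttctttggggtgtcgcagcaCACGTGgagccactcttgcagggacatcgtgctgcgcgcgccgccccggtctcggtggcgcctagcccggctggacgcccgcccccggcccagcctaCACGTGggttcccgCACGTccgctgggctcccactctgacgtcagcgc
Eno1: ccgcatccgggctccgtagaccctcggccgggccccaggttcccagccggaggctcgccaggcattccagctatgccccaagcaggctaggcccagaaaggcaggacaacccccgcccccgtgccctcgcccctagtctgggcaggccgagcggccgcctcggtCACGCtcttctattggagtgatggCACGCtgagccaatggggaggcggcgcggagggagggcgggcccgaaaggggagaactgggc
Eno3: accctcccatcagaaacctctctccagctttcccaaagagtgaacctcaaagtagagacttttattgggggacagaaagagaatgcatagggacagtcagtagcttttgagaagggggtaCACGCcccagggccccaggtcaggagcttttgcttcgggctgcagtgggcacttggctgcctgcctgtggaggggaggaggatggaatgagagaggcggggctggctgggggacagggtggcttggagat
The Ldha window shown held 5 matches, those of Slc2a1 and Eno1 held 2 each, and that of Eno3 held 1, at 130 bases before its start. Ldha has another window with 1 match, and Eno1 has others with 1 and 2 matches, at other transcript starts. The Eno1 window with 2 overlaps the one shown and holds the same matches. Of 16 windows found for 9 of the 10 genes, 14 held a match. Windows of Pfkm also overlap and share a match, so the 14 are not independent. Slc2a4 had no window in the table. Among all 32851 windows of the same length 38.6% held a match, and windows of the muscle genes Pfkm, Ldhb and Hk2 were among them. A match is a run of letters and not a shown binding site.

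**Figure D1:**
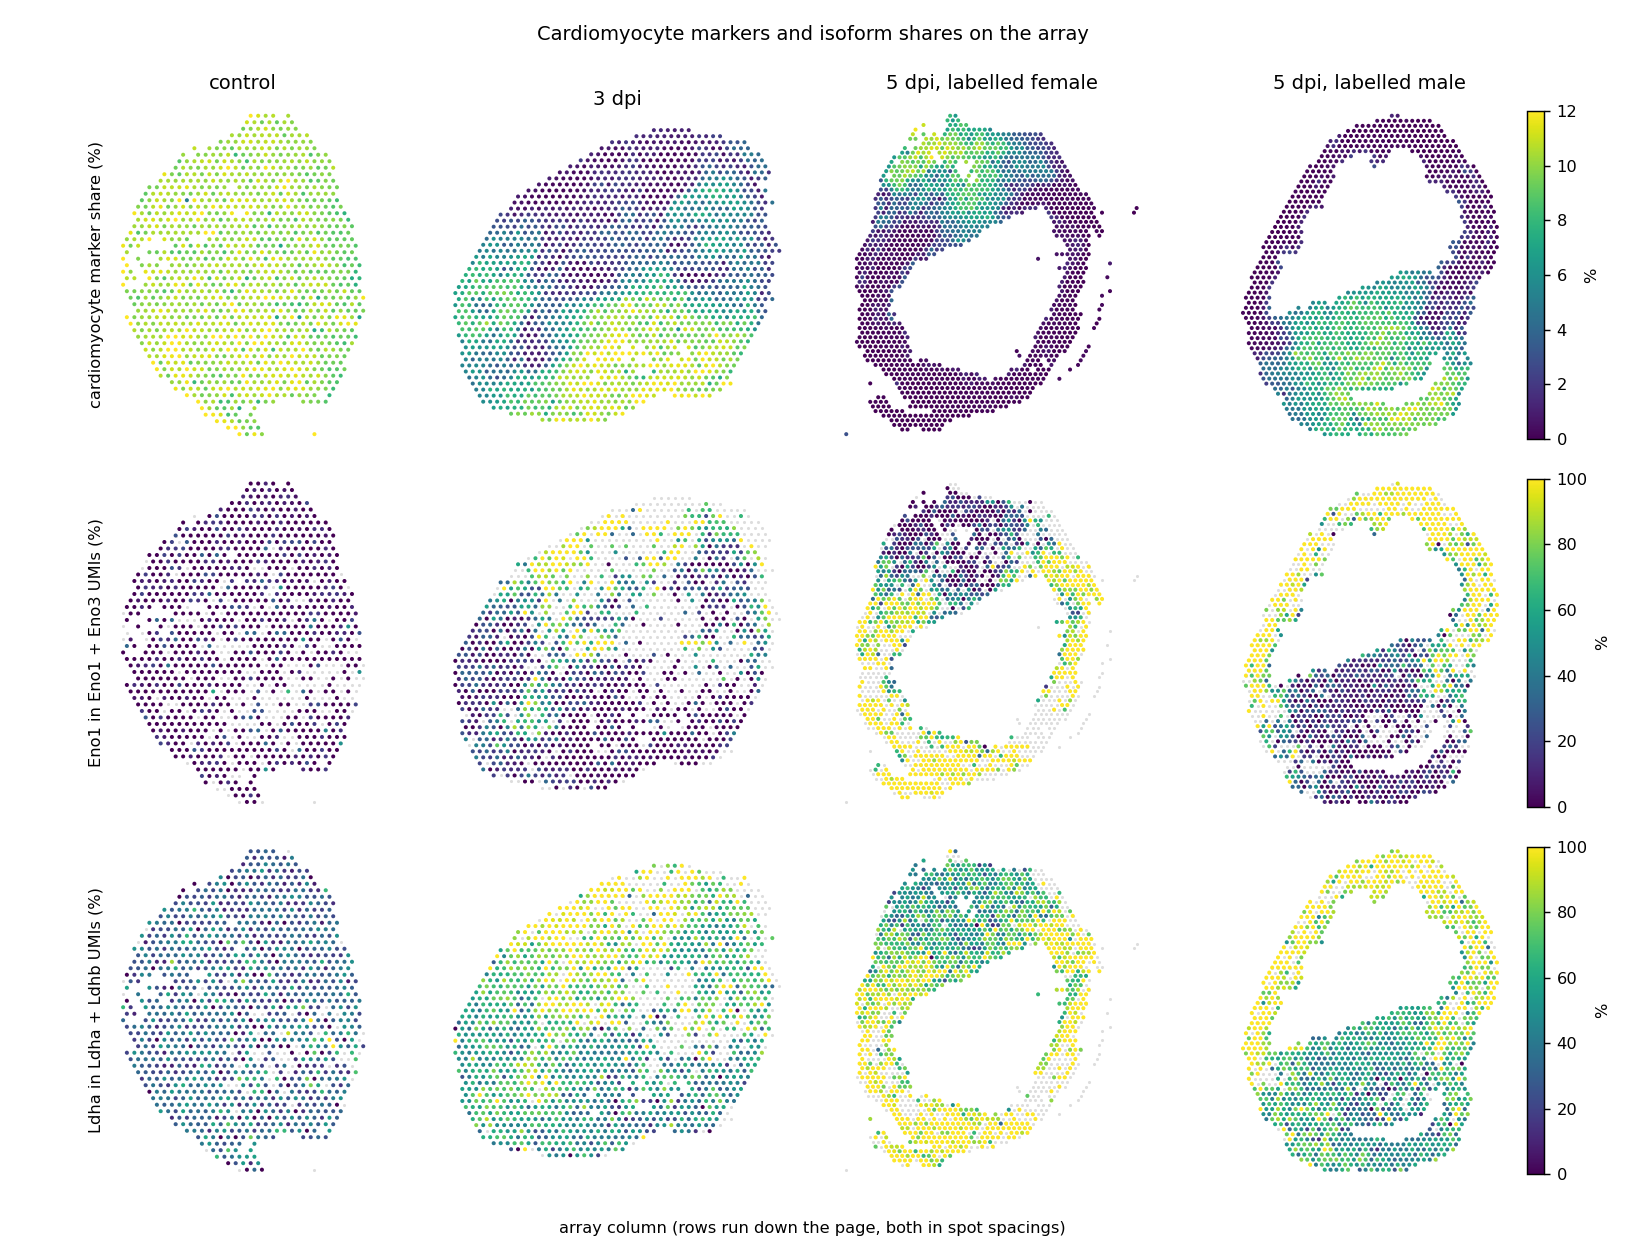
Kept spots of the 4 sections at their array positions, coloured by the share of cardiomyocyte markers in non-mitochondrial UMIs (top row, scale 0 to 12%), of Eno1 in Eno1 and Eno3 UMIs (middle) and of Ldha in Ldha and Ldhb UMIs (bottom, both 0 to 100%), with spots under 3 UMIs of the pair in grey. In the infarcted sections the regions low in cardiomyocyte markers are those high in both shares, and in the control Eno1 makes up 5.38% of the pair's UMIs over the whole section.

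On the array, the 2 forms of enolase lay in complementary regions. Eno1 held most of the enolase UMIs where cardiomyocyte markers were low, and Eno3 where they were high, in all 3 infarcted sections. The map of Ldha shares followed the same regions with less contrast. Levels of the members are given next in pathway order, in the muscle-poor and muscle-rich spots of each infarcted section and in the muscle-rich spots of the control. Differences were tested with edgeR's quasi-likelihood test on UMIs summed per class and section, with Benjamini-Hochberg adjustment over 10838 genes and a threshold of 0.05. The 3 hearts were the replicates, and each log2 fold change is given ± SE of the fit with n = 3 sections.

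Slc2a4, which encodes GLUT4, was far higher in muscle-rich spots. It measured 362 CPM in the muscle-rich spots of the control, and 307, 245 and 239 CPM in those of the 3 dpi, 5 dpi female-labelled and 5 dpi male-labelled sections. Muscle-poor spots held 25.5, 7.34 and 13.1 CPM of it, listed likewise, far below every muscle-rich value. The log2 fold change of muscle-poor against muscle-rich spots was -4.69 ± 0.20 (adjusted p = 9.49e-14 by edgeR), the lowest of the 10 genes. Slc2a1, which encodes GLUT1, was the lowest of the 10 in the muscle-rich spots of each section, with 13.8 CPM (95% exact Poisson interval 10.3 to 18.2, from 50 UMIs) in the muscle-rich spots of the control. After MI its muscle-rich level was 11.4 CPM at 3 dpi and 29.8 and 23.6 CPM in the female-labelled and male-labelled 5 dpi sections, and its muscle-poor level 56.9, 42.4 and 39.4 CPM. It was higher in muscle-poor spots of all 3 sections, by 0.65 ± 0.23 on the log2 scale (adjusted p = 0.0212 by edgeR). That call rests on the 3 dpi section: without it the log2 fold change was 0.22, with an adjusted p of 0.368. Slc2a1 did not follow the cardiomyocyte share steadily at 5 dpi, where its highest levels were in spots of the low class, at 56.5 CPM (female-labelled) and 55.0 CPM (male-labelled), with intervals that overlap those of muscle-poor spots.

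Both hexokinases were lower in muscle-poor spots, Hk2 by more. Hk2 measured 82.2 CPM in muscle-rich control spots and 86.9, 98.0 and 61.2 CPM in those of the 3 dpi, female-labelled and male-labelled 5 dpi sections. In muscle-poor spots Hk2 had 37.9 CPM on day 3 against 12.1 and 8.31 CPM on day 5, the 3 dpi value standing above both others. The log2 fold change was -2.71 ± 0.24 (adjusted p = 5.60e-09 by edgeR). Muscle-poor spots at 3 dpi also kept more cardiomyocyte RNA, 10766 CPM of the 12 markers against 3594 and 5001 CPM later, and its part in the Hk2 values was not tested. Hk1, the hexokinase of most tissues, was less unequal, at 139 CPM in muscle-rich control spots, 171, 198 and 146 CPM in muscle-rich spots after MI, and 114, 78.1 and 83.6 CPM in muscle-poor spots. Muscle-poor and muscle-rich values did not overlap, and the log2 fold change was -1.37 ± 0.13 (adjusted p = 2.13e-08 by edgeR).

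The phosphofructokinase forms differed in how steeply they fell away. Pfkm, the muscle form, measured 716 CPM in muscle-rich control spots and 586, 438 and 521 CPM in those after MI, against 56.0, 43.2 and 57.2 CPM in muscle-poor spots. The log2 fold change was -3.77 ± 0.14 (adjusted p = 3.18e-14 by edgeR), with ratios close to each other in the 3 hearts. Pfkl, the liver-type form, measured 95.5 CPM in muscle-rich control spots, 118, 126 and 137 CPM in those after MI, and 85.8, 74.0 and 85.8 CPM in muscle-poor spots. It was lower in muscle-poor spots by a log2 fold change of -1.10 ± 0.13 (adjusted p = 3.09e-07 by edgeR). Trimmed-mean scaling shifted the muscle-poor against muscle-rich values of all genes by -0.46 on the log2 scale, and the CPM ratios of Pfkl before it had a mean of -0.63 (SD 0.16, n = 3).

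Among the enolases the levels crossed. Eno1 measured 97.9 CPM in muscle-rich control spots, 121, 151 and 175 CPM in those of the 3 dpi, female-labelled and male-labelled sections, and 489, 525 and 618 CPM in muscle-poor spots. Every muscle-poor value lay above every muscle-rich value, and the log2 fold change was 1.41 ± 0.12 (adjusted p = 1.68e-09 by edgeR), the highest of the 10 genes. The near-identical gene Eno1b held 2 to 27 UMIs per section, against 372 to 4184 for Eno1, and reads that fit both copies could be assigned to either or dropped. Eno3 went the other way, at 1756 CPM in muscle-rich control spots, 1769, 1392 and 1544 CPM in those after MI, and 158, 60.7 and 83.9 CPM in muscle-poor spots. Its log2 fold change was -4.53 ± 0.16 (adjusted p = 3.18e-14 by edgeR).

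Ldhb, the heart-type subunit, was the most abundant member in the control, at 2117 CPM in muscle-rich spots. It measured 1555, 1102 and 1403 CPM in the muscle-rich spots after MI and 164, 85.7 and 98.8 CPM in muscle-poor spots, and these ranges did not overlap. The log2 fold change was -4.03 ± 0.16 (adjusted p = 4.51e-14 by edgeR). Ldha was present throughout, at 957 CPM in muscle-rich control spots, 1443, 1370 and 1477 CPM in those after MI, and 928, 708 and 766 CPM in muscle-poor spots. It was lower in muscle-poor than in muscle-rich spots of the same heart in 3 of 3 sections, by a log2 fold change of -1.31 ± 0.12 (adjusted p = 4.32e-09 by edgeR). The 3 dpi muscle-poor level, 928 CPM (interval 895 to 962), overlapped that of control muscle, 957 CPM (interval 926 to 990), while both 5 dpi levels were below it.

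**Figure D2:**
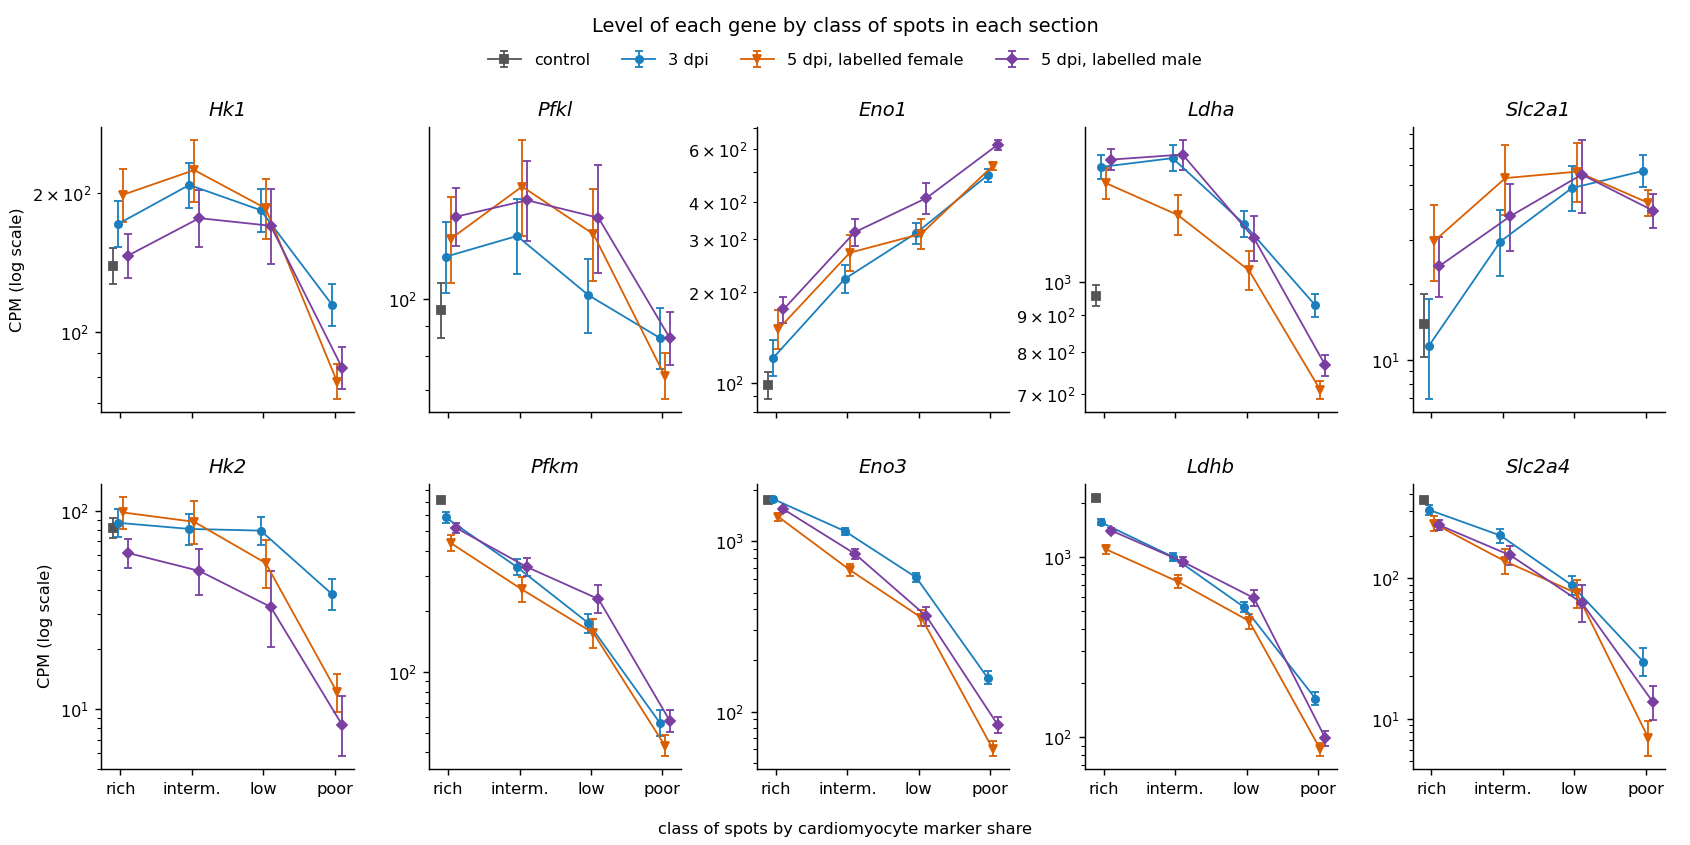
Level of each gene (CPM over non-mitochondrial UMIs, log scale) in the 4 classes of spots, from muscle-rich on the left to muscle-poor on the right, for classes of at least 100 spots, with 95% exact Poisson intervals that cover counting error only. Eno1 rises to 489 to 618 CPM in muscle-poor spots, Eno3, Ldhb, Pfkm, Hk2 and Slc2a4 end far below their muscle-rich levels, and Hk1, Pfkl and Ldha differ less between the classes than those 5.

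Counted together, 2 of the 10 genes were higher and 8 were lower in muscle-poor spots, and none missed the threshold. Over all 10838 genes tested, 29.2% were called higher and 28% lower, so a call by itself was common, and the members' counts are read against those shares. The median log2 fold change was -2.04 over the members and 0.05 over all genes. Other cell types moved with the same classes. In muscle-poor spots the 8 macrophage markers were all called higher (9432 to 12933 CPM summed, against 1540 to 2072 in muscle-rich spots), as were 6 of 7 fibroblast markers (14023 to 25280 against 2949 to 5095 CPM), 3 of 3 neutrophil markers tested of 5 listed (247 to 350 against 24.5 to 81.4 CPM), with Cxcr2 at 0 in the control, 2 of 2 lymphocyte markers tested of 5, with Cd3e at 0 in the control, and 5 of 5 cycling markers (341 to 485 against 94.9 to 169 CPM). The other fibroblast marker, Dcn, was called lower. Endothelial markers were called lower in 5 of 6 cases (920 to 1607 against 1775 to 3381 CPM), and mural markers were mixed, 2 higher and 3 lower. The 4 erythroid markers were all lower (3734 to 22523 against 6207 to 27406 CPM). Of 6 skeletal muscle markers, 4 (Tnnt3, Myh2, Myh4 and Actn3) were at 0 in the control, and of the 2 tested Tnnt3 was called higher and Acta1 lower. Mitochondrial RNA made up 2.07% to 5.36% of UMIs in muscle-poor and 28.7% to 40.8% in muscle-rich spots. The part of each cell type in the levels of the 10 genes was not tested.

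**Figure D3:**
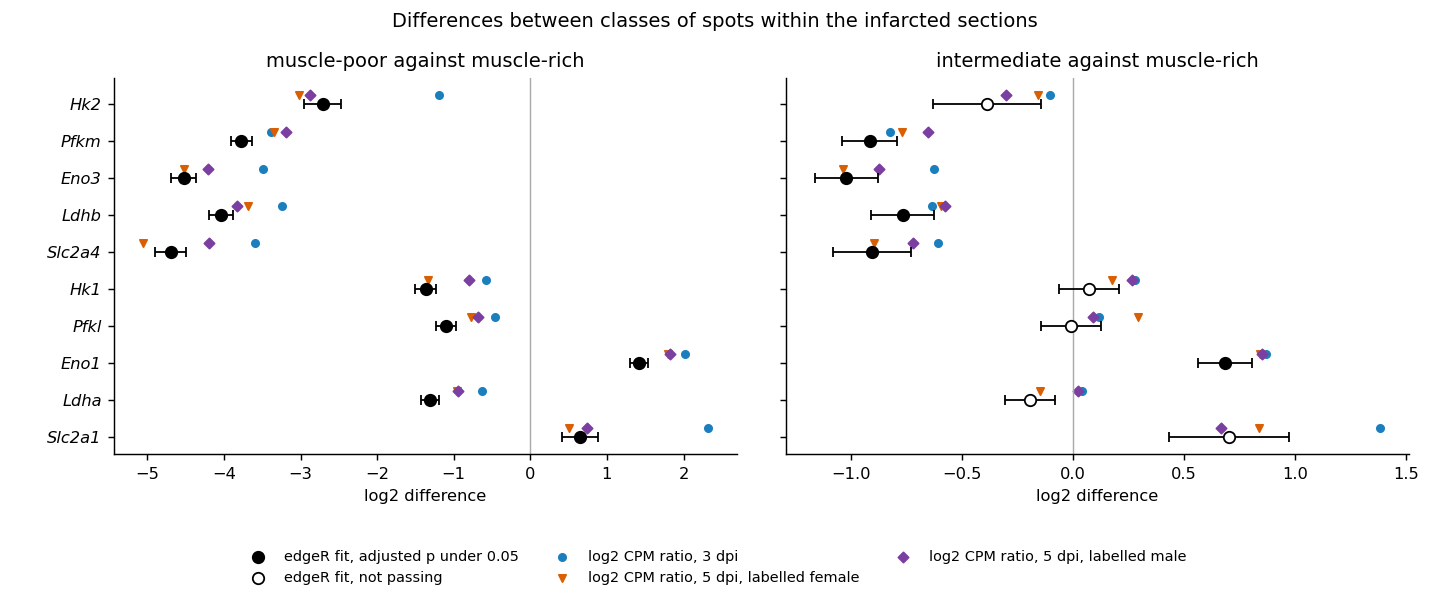
Log2 difference of each gene between classes of spots, muscle-poor (left) and intermediate (right) against muscle-rich, as the edgeR estimate with SE (black, filled where the adjusted p is under 0.05) and as the plain log2 ratio of CPM in each infarcted section (coloured). Most ratios lie to the right of the estimates, to which scaling adds a shift of -0.46 on the left and -0.17 on the right, and Slc2a1 is the gene whose 3 sections lie farthest apart on the right.

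The intermediate class asked whether the same genes differ where cardiomyocyte RNA is only partly lost. Summed cardiomyocyte markers were lower there by a mean of 0.62 on the log2 scale in CPM (values of -0.58, -0.74 and -0.54). On the scale of the edgeR fit, used for the members below, the 12 markers had a median log2 fold change of -0.91 (-1.36 to -0.32). Eno1 was already higher, with 221, 270 and 316 CPM and a log2 fold change of 0.69 ± 0.12 (adjusted p = 0.000717 by edgeR). The muscle forms Eno3 (-1.02 ± 0.14, adjusted p = 0.000129), Pfkm (-0.91 ± 0.12, adjusted p = 9.51e-05), Slc2a4 (-0.90 ± 0.17, adjusted p = 0.00169) and Ldhb (-0.77 ± 0.14, adjusted p = 0.00105) were lower by edgeR. The remaining 5 genes did not pass. Hk2 was at -0.39 ± 0.24, Ldha at -0.19 ± 0.11, Pfkl at -0.01 ± 0.14 and Hk1 at 0.07 ± 0.14. Slc2a1 had an estimate as large as that of Eno1, 0.70 ± 0.27, with an adjusted p of 0.114, from 40 to 44 UMIs per section. It passed without scaling factors (adjusted p = 0.0496) and without the filter on low counts (adjusted p = 0.0209 by edgeR). Thus 1 member was called higher and 4 lower, where 3.87% and 5.58% of the 10838 genes were. Of the cell type markers, 4 of 8 for macrophages, 4 of 7 for fibroblasts and 1 of 5 for mural cells were higher in the same spots, and 0 of 6 endothelial markers passed. Mitochondrial RNA made up 28.0%, 26.8% and 20.4% of UMIs there, against 39.0%, 40.8% and 28.7% in muscle-rich spots. The part of these differences in the members' values was not tested. Without the section as a block 0 members were called higher and 1 lower, and with spots classed by quartiles of each section 1 was called higher and 1 lower.

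Shares within a pair do not depend on the library size and need no scaling. Because capture and 3′ counting can differ between the genes of a pair, the share is read for its change and not as a ratio of proteins. Eno1 made up 5.28% of Eno1 and Eno3 UMIs in muscle-rich control spots (95% exact binomial interval 4.76% to 5.84%), 6.40%, 9.76% and 10.2% in those of the 3 dpi, female-labelled and male-labelled sections, and 75.6%, 89.6% and 88.1% in muscle-poor spots. The mean gain from muscle-rich to muscle-poor spots was 75.6 percentage points (SD 5.68, n = 3). Slc2a1 in the transporter pair went from 3.57%, 10.8% and 8.99% to 69.1%, 85.2% and 75.1%, a mean gain of 68.7 points (SD 4.98). Pfkl went from 16.7%, 22.4% and 20.9% to 60.5%, 63.2% and 60.0% of the phosphofructokinase pair, a gain of 41.2 points (SD 2.39). Ldha went from 48.1%, 55.4% and 51.3% to 85.0%, 89.2% and 88.6% of its pair, a gain of 36.0 points (SD 1.90). Hk1 showed the smallest gain, from 66.3%, 66.9% and 70.5% to 75.1%, 86.5% and 91.0%, or 16.3 points (SD 6.53), with 8.80 points at 3 dpi and 19.7 and 20.5 points at 5 dpi. Eno1, Slc2a1, Pfkl, Ldha and Hk1 each held the larger share of their pair in muscle-poor spots of 3 of 3 sections. Hk1 also held it in muscle-rich spots of all 3, and Ldha in those of both 5 dpi sections. No test was run on the shares.

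**Figure D4:**
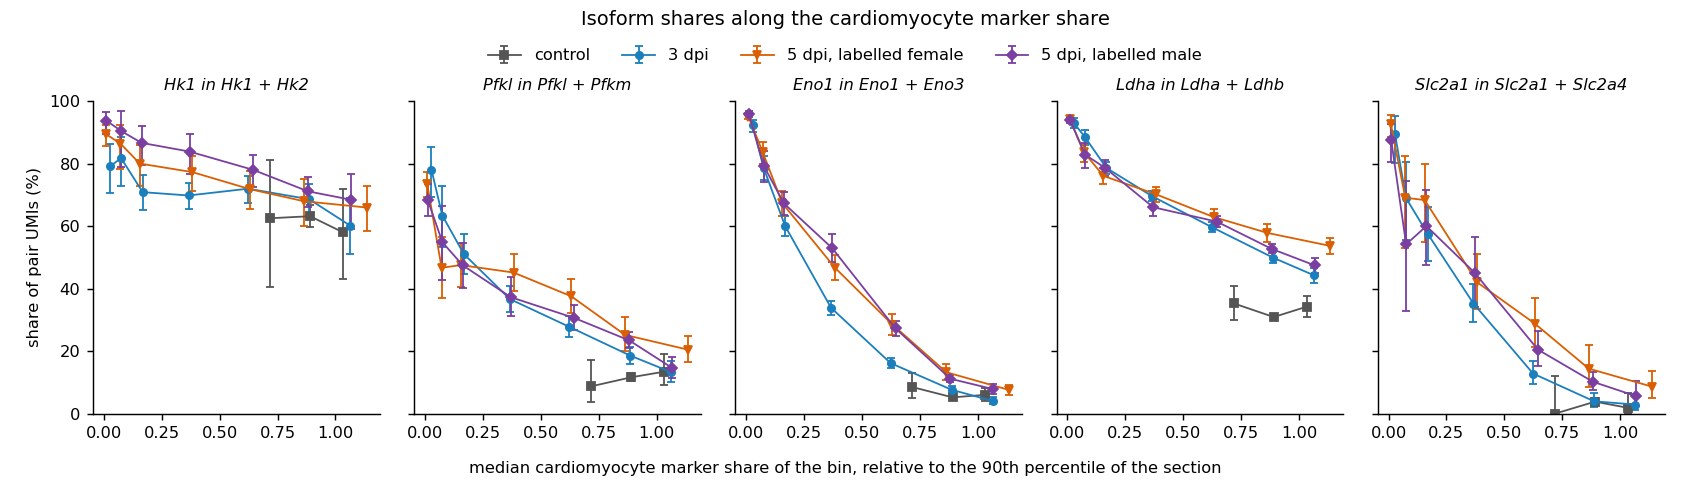
Share of the first gene in the UMIs of its pair (vertical axis, percent, with 95% exact binomial intervals) in spots binned by cardiomyocyte marker share relative to the 90th percentile of the section (horizontal axis, median of the bin), for 4 sections. In the infarcted sections Eno1 runs from 92.3% to 95.9% at the left to 4.07% to 7.83% at the right, and Hk1 stays at 60.2% or above. The control (grey) has points only at the right, with Hk1 as low as 58%, and its Ldha points lie below those of the infarcted sections.

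The Eno1 share differed between neighbouring classes along the whole range. In the intermediate class it was 16.2%, 28.5% and 27.3%, and in the low class 33.9%, 46.7% and 53.0%. Intermediate spots exceeded muscle-rich spots in 3 of 3 sections for every pair, by means of 15.2 points for Eno1 (SD 4.76), 12.9 for Slc2a1 (SD 4.51), 12.0 for Pfkl (SD 2.84), 9.71 for Ldha (SD 2.06) and 6.04 for Hk1 (SD 1.34). In the bin with least cardiomyocyte RNA, at median relative shares of 0.0102 to 0.0283, Eno1 reached 92.3%, 95.04% and 95.9%, and Ldha 93.0%, 94.3% and 94.0%. Pfkl stopped at 78.1%, 73.5% and 68.5% in the same bin, with Pfkm making up the rest.

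The genes were also set against cardiomyocyte UMIs instead of all UMIs. The log2 ratio of Eno3 to the summed cardiomyocyte markers differed between muscle-poor and muscle-rich spots by -0.12 (SD 0.17, n = 3), that of Slc2a4 by -0.33 (SD 0.21), that of Ldhb by 0.37 (SD 0.47) and that of Pfkm by 0.65 (SD 0.75), where the markers themselves fell by 3.95 (SD 0.70). At 3 dpi the differences were -0.29 for Eno3, -0.40 for Slc2a4, -0.05 for Ldhb and -0.20 for Pfkm. For Ldhb and Pfkm both 5 dpi ratios of each gene were above 0, Pfkm at 1.22 and 0.92. Hk2 was higher against the markers by 1.59 (SD 0.39). The other forms were higher by more, Hk1 by 3.04, Ldha by 3.11, Pfkl by 3.32, Slc2a1 by 5.14 and Eno1 by 5.83. These ratios share their denominator, which also set the classes, and are given as a description.

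Across whole sections, Eno1 was higher and Eno3, Ldhb, Pfkm and Slc2a4 were lower in all 3 infarcted hearts than in the control, by over 2-fold. The control and 3 dpi have 1 section each, so there is no test, and a gene was called where all 3 infarcted sections lay on the same side of the control and the nearest was at least 2-fold away, counting only genes that reached 50 CPM somewhere. Eno1 measured 99.4 CPM in the control and 324, 439 and 438 CPM at 3 dpi and in the female-labelled and male-labelled 5 dpi sections, 3.26 to 4.41 times the control. Eno3 measured 1749 CPM in the control and 776, 299 and 613 CPM, Ldhb 2101 and 688, 295 and 613 CPM, Pfkm 711 and 243, 119 and 237 CPM, and Slc2a4 357 and 130, 52.8 and 97.9 CPM. Of these 4 the control was above each infarcted section by 2.25 to 7.13 times, and the female-labelled section, which had the most muscle-poor spots, was lowest for each. With CPM over all UMIs the Eno3 call was lost. Slc2a1 was 13.4 CPM in the control (interval 9.92 to 17.6) and 40.6, 43.2 and 36.1 CPM after MI, or 2.70 to 3.23 times, but stayed under 50 CPM and was not eligible. Hk2 measured 81.8, 65.3, 32.7 and 30.5 CPM, and was called lower only without the 3 dpi section. Hk1 (138, 159, 115 and 121 CPM), Pfkl (94.3, 103, 92.1 and 112 CPM) and Ldha (956, 1198, 863 and 1094 CPM) had infarcted sections on both sides of the control. In all, 1 of 9 eligible members was called higher and 4 lower, where 26% and 8.63% of 3524 genes were. Without the 2-fold limit, 60.4% of these genes were higher and 31% lower than the control in all 3 sections, as Eno1 was on the higher side and Hk2, Pfkm, Eno3, Ldhb and Slc2a4 were on the lower. The whole-section Ldha share went from 31.3% in the control to 63.5%, 74.6% and 64.1%, with Ldhb lower in every infarcted section and Ldha on both sides of the control.

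Surviving muscle was set against uninjured muscle in the muscle-rich spots, where no member reached the 2-fold rule (0 of 9, against 4.16% of 2911 genes called higher and 0.206% lower). Smaller differences lay on the same side of the control in all infarcted sections for 7 of these 9 genes, 4 higher and 3 lower. Of the 2911 genes 40.1% were higher in all 3 sections and 23.6% lower, so this was common, and the values are given as a description. Ldha was 1.51, 1.43 and 1.54 times its control level of 957 CPM at 3 dpi and in the female-labelled and male-labelled 5 dpi sections, with counting intervals apart from that of the control in each. Ldhb was 0.735, 0.521 and 0.663 times its control level, again with separate intervals. The Ldha share of the pair was 31.1% in control muscle (interval 30.3% to 32.0%), 48.1% at 3 dpi (46.8% to 49.5%), 55.4% (53.6% to 57.3%) in the female-labelled and 51.3% (50.1% to 52.5%) in the male-labelled 5 dpi section. In spots at or above the 90th percentile of the cardiomyocyte share of their own section, the Ldha share was 34.2% in the control (30.9% to 37.6%) and 44.3%, 53.6% and 47.4% after MI. That percentile was 11.4% in the control and 10.5%, 8.19% and 9.28% after MI. These spots, like the muscle-rich classes, are therefore not matched in cardiomyocyte content between sections, and its part was not tested. Pfkm (0.819, 0.611 and 0.728 times) and Slc2a4 (0.848, 0.677 and 0.661 times) were lower, and Eno1 (1.24, 1.54 and 1.79 times), Pfkl (1.23, 1.32 and 1.44 times) and Hk1 (1.23, 1.42 and 1.05 times) higher, and all 7 kept their side with CPM over all UMIs. The Hk1 interval of the male-labelled section, 131 to 163 CPM, overlapped that of the control, 127 to 152 CPM. Eno3, the enolase of muscle, was 1.01, 0.792 and 0.879 times the control, and Hk2 1.06, 1.19 and 0.745 times. Slc2a1 was 0.821 times the control at 3 dpi, and 2.15 and 1.71 times at 5 dpi. Muscle-rich spots after MI held 84743 to 98373 CPM of cardiomyocyte markers against 102049 in the control, 2949 to 5095 CPM of fibroblast markers against 1165, and 1540 to 2072 CPM of macrophage markers against 929. In the order 3 dpi, female-labelled and male-labelled, erythroid markers summed to 6207, 27406 and 14499 CPM against 7640 in the control, and neutrophil markers to 29.5, 81.4 and 24.5 CPM against 16.6. The cycling markers summed to 94.9 to 169 CPM against 14.4, and the skeletal muscle list, which includes Acta1, an actin gene that heart muscle also expresses, to 933 to 1682 CPM against 292. In the same order, mural markers summed to 411, 530 and 340 CPM against 541, and endothelial markers to 1775, 2396 and 3381 CPM against 2630. Mitochondrial RNA made up 39.0%, 40.8% and 28.7% of UMIs against 40.3%. The part of these cells and genes in the levels was not tested. The heart, the day and the injury cannot be told apart in this comparison, with a single control heart.

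The muscle-poor tissue holds macrophages and fibroblasts, so its spots were ranked within each section by macrophage UMIs among macrophage and fibroblast UMIs, and the upper tercile was compared with the lower by edgeR over 10445 genes. None of the 10 genes was called higher in macrophage-rich spots and 6 were called lower, where 10.8% of genes were called higher and 11.7% lower. The 6 were Eno3 (log2 fold change -1.27 ± 0.16), Ldhb (-1.14 ± 0.12), Pfkm (-1.06 ± 0.14), Slc2a4 (-0.97 ± 0.28), Hk2 (-0.92 ± 0.24) and Hk1 (-0.57 ± 0.11). The Slc2a4 call was lost without the 3 dpi (adjusted p = 0.248) or the male-labelled section (adjusted p = 0.0528), and the Hk2 call without the female-labelled section (adjusted p = 0.173 by edgeR). With DESeq2 on all 3 sections 4 members were lower, without Hk2 (adjusted p = 0.0986) and Slc2a4 (adjusted p = 0.159). Cardiomyocyte markers moved with the terciles, from 14589 to 6664 CPM at 3 dpi, and on day 5 from 5772 to 1588 CPM (female-labelled) and 8519 to 1637 CPM (male-labelled), with 12 of 12 markers called lower. In the same terciles 3 of 3 neutrophil and 2 of 2 lymphocyte markers tested were higher, and 2 of 2 skeletal muscle markers tested (Acta1 and Tnnt3) were lower, and their part was not tested. When terciles were taken within deciles of the cardiomyocyte share, an alternative chosen after seeing the data, 0 of the 10 genes were called by edgeR, and at an unadjusted p under 0.05 Slc2a1 was higher (0.45 ± 0.16, adjusted p = 0.0643) and Pfkm lower (-0.35 ± 0.14, adjusted p = 0.123). Eno1, Pfkl, Ldha and Slc2a1 did not pass in either comparison. Eno1 was at 443 and 578 CPM in fibroblast-rich and macrophage-rich spots at 3 dpi, 454 and 596 CPM in the female-labelled section, and 705 and 571 CPM in the male-labelled section, so the hearts differed in direction, a difference that was not tested, and the fitted difference was 0.16 ± 0.10 (adjusted p = 0.284). Pfkl and Ldha showed the same opposition, higher in macrophage-rich spots at 3 dpi and in the female-labelled section and lower in the male-labelled section. Without the male-labelled section, Eno1 passed as higher (0.38, adjusted p = 0.00755 by edgeR). Slc2a1 was at 52.8 and 74.9 CPM, 37.6 and 44.9 CPM, and 43.2 and 40.5 CPM.

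**Figure D5:**
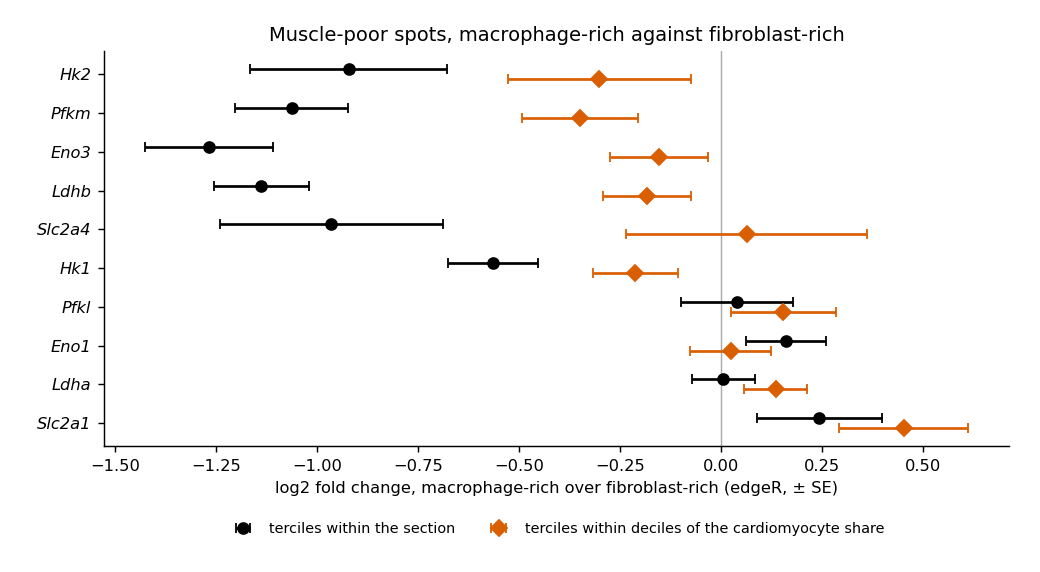
Log2 fold change (edgeR, ± SE, n = 3 sections) between macrophage-rich and fibroblast-rich terciles of muscle-poor spots, taken within the section (black) or within deciles of the cardiomyocyte share (orange). The muscle forms and Hk1 lie between -1.27 and -0.57 in black and between -0.35 and 0.06 in orange, and Slc2a1 moves from 0.24 to 0.45.

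The rest of glycolysis and pyruvate handling was covered by 31 further symbols, of which 23 could be tested between muscle-poor and muscle-rich spots. Of these, 5 were called higher and 18 lower, with a median log2 fold change of -1.37, where 29.2% and 28% of all genes tested were called and the median was 0.05. Muscle phosphoglycerate mutase Pgam2 was lower by a log2 fold change of -4.28 ± 0.23, while Pgam1, the form of most tissues, was higher by 0.80 ± 0.12, from 176, 184 and 185 CPM in muscle-rich to 473, 423 and 415 CPM in muscle-poor spots. The lactate transporters parted likewise, Slc16a1 (MCT1) at -3.78 ± 0.21 and Slc16a3 (MCT4), the exporter of glycolytic cells, at 2.34 ± 0.25. Slc16a3 was at 1.66 CPM in muscle-rich control spots and at 67.8, 54.4 and 53.2 CPM in muscle-poor spots. The other genes called higher, Hk3 (2.53 ± 0.33), a hexokinase of blood cells, and Pfkfb3 (2.22 ± 0.26) and Pfkfb4 (1.17 ± 0.28), which make the activator of phosphofructokinase, were under 50 CPM in every class and are named after their values were seen. The widely expressed enzymes changed less than the muscle forms: Gpi1 (-1.20 ± 0.13), Aldoa (-1.84 ± 0.12), Tpi1 (-1.37 ± 0.11), Gapdh (-1.33 ± 0.12), Pgk1 (-0.82 ± 0.13), Pkm (-0.36 ± 0.12) and the platelet phosphofructokinase Pfkp (-0.69 ± 0.16). These values include the scaling shift of -0.46, and the gap between the groups was not tested. In plain CPM, Pkm was higher in muscle-poor than muscle-rich spots at 3 dpi (1418 against 1220) and in the male-labelled section (1246 against 1103). Pkm was lower in the female-labelled section (1157 against 1225), and Pfkp was higher only at 3 dpi. Genes that pass pyruvate into mitochondria or gate its oxidation, Pdha1 (-2.63 ± 0.13), Pdk2 (-3.53 ± 0.15), Mpc1 (-2.87 ± 0.14) and Mpc2 (-3.11 ± 0.14), lay nearer to the muscle forms. In the intermediate class 2 of 23 were higher, Pfkp (0.64 ± 0.17, adjusted p = 0.0161) and Slc16a3 (1.3 ± 0.32, adjusted p = 0.0111 by edgeR), and 7 were lower, against 3.87% and 5.58% of all genes. Pfkp was at 202, 256 and 215 CPM in intermediate spots, above both its muscle-rich (103, 158 and 124 CPM) and muscle-poor (134, 93.3 and 99.8 CPM) levels in every infarcted section. Between macrophage-rich and fibroblast-rich terciles 4 of 20 tested were higher and 6 lower, against 10.8% and 11.7% of all genes, among them Pgam1 (0.33 ± 0.08) and Pgam2 (-1.62 ± 0.14).

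Likeness of pattern was measured as Pearson's r of log2(CPM + 1) over 14 class sums of the 4 sections, which share hearts and cardiomyocyte content, and it is given as a description. Eno3, Ldhb, Pfkm and Slc2a4 followed each other closely, with r from 0.97 to 0.99 between any pair of them. Their nearest genes were Got1, Uqcrc1 and Slc2a4 itself for Eno3 (0.996 to 0.994), Coq8a, Asb11 and Got1 for Slc2a4 (0.996 to 0.995), Chchd10, Myzap and Cox6a2 for Ldhb (0.997 to 0.995), and Map1lc3a, Ndufb9 and Ivns1abp for Pfkm (0.996 to 0.993). Eno1 ran opposite to these 4, with r from -0.92 to -0.91, and was most like Cdk4, Gpx1 and Tmsb10 (0.989 to 0.987). Hk1 was most like Sorbs2, Ehd4 and Gpi1 (0.986 to 0.969), and Hk2 like Kcnj5, Eef1a2 and Srl (0.965 to 0.961). The nearest genes of Slc2a1 were Arfip1, Nln and Golim4 (0.984 to 0.980), those of Ldha were Cav3, Smyd2 and Pdlim5 (0.94 to 0.926), and those of Pfkl were Dmd, D630003M21Rik and Tmem144 (0.929 to 0.919).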

How the data were processed

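Visium libraries of 4 heart sections were mapped by the authors with Space Ranger 1.3.1 to an Ensembl-based mouse reference with a GFP sequence added, and the files deposited hold unnormalized counts of UMIs for each gene in each spot. The submitters' notes name mm10 as the build, which differs from the reference in the methods, and the files give no coordinates. The authors selected the spots that lie under tissue manually. A spot needed 500 UMIs and 250 genes or more and no more than 50% mitochondrial UMIs, as in the study. UMIs were summed per section and class (12 sums) or tercile (9 sums) and tested with edgeR 4.0.16 (R 4.3.3, limma 3.58.1), after TMM normalization and edgeR's default expression filter, with library sizes over non-mitochondrial UMIs and the section as a block. The fits were tested on simulated data. DESeq2 1.42.0 and other settings served as alternatives. Intervals are at 95% and cover counting error only. P-values and SEs rest on the residual spread of the sums after the section block, pooled over classes or terciles and moderated across genes. They are not the plain spread of 1 difference over 3 hearts. For muscle-poor against muscle-rich spots, the log2 CPM ratios had SDs over the 3 hearts of 1.01 (Hk2) and 0.99 (Slc2a1). The SEs of the fit were 0.24 and 0.23. Other pathway genes were named at a mean of 50 CPM or more in a class of the infarcted sections, and pattern genes as the 3 with the highest r. Sums of under 2 spots were left out of the patterns, which was decided after seeing the data and left 14 of 16. The members, lists and comparisons were chosen with earlier results of these data known. Promoter sequences are from RefSeq (GRCm38.p6).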

Additional observations from a re-analysis of the deposited data

Results flagged for a closer look

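The 623 spots with counts that were not marked as tissue in the male-labelled 5 dpi section entered no comparison. Eno1, Slc2a1 and Ldha lay above the control section there with separate counting intervals. The share of all genes that did so was not determined, so the values are given as a description. Over whole sections, 60.4% of 3524 genes were higher than the control in all 3 infarcted hearts. Eno1 was at 599.8 CPM (95% exact Poisson interval 568 to 633), against 99.4 CPM in the control. Slc2a1 was at 52.5 CPM (43.4 to 62.9), against 13.4 CPM, and Ldha at 1054 CPM (1012 to 1097), against 955.9 CPM. Pfkl, at 108 CPM (94.9 to 122.7), was above the control's 94.3 CPM with overlapping intervals. Eno3, Ldhb and Slc2a4 were present in the same spots at 288, 277 and 42.6 CPM, below their control levels of 1749, 2101 and 357 CPM. Pfkm (119.8 against 711 CPM), Hk2 (45.8 against 81.8 CPM) and Hk1 (87.9 against 138 CPM) were also below the control. Over the tissue spots of the same section Eno1 was at 438, Slc2a1 at 36.1 and Ldha at 1094 CPM, so Ldha was not higher outside the marked tissue.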

How the results depend on the processing

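Between muscle-poor and muscle-rich spots, 117 of 120 values of single members under 12 alternatives kept their direction and their side of the threshold, and the other 3, all of Slc2a1, were weaker. The members called higher numbered 1 with quartiles of the share (Slc2a1 0.59, adjusted p = 0.121), 1 with a single split at 0.5 (0.36, adjusted p = 0.196), which was chosen after seeing the data, and 1 to 2 when a section was left out. For intermediate spots, 2 were higher without TMM factors and 2 without the filter on low counts, 0 higher and 1 lower without the section as a block, and 1 lower with quartiles. Small values turned sign: Pfkl to 0.16 without TMM factors, 0.0103 with common cuts, 0.0256 over every tissue spot, and -0.106 to 0.0048 with a section left out, and Hk1 to -0.19 with quartiles. For macrophage-rich spots, 0 were lower with terciles matched on the cardiomyocyte share (Slc2a4 at 0.0637), and 0 to 1 were higher with a section left out. Ldha turned to -0.00059 without TMM factors and lay between -0.076 and -0.00035 without 3 dpi or the female-labelled section, with 0.102 without the male-labelled section, and Pfkl at -0.13, -0.05 and 0.316. With quartiles the gains in share were 51.4 points for Pfkl, 82.0 for Eno1, 40.7 for Ldha and 77.6 for Slc2a1. The causes were not tested. No paired analysis between the control, 3 dpi and 5 dpi groups was possible because each section came from a different heart. The classes and terciles of a section were fitted with the section as a block, except in the alternative without it. Depth limits Slc2a1 in muscle-rich spots, with 20 to 54 UMIs per section.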
